A study of Mus musculus with 6 samples.

Results

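The genes described here encode the chaperones of the endoplasmic reticulum (ER) and the unfolded protein response that adjusts their supply. They were chosen by name, 33 gene symbols in all, and all 33 were found among the 56674 rows of the count table. Liver RNA came from male C57BL/6 mice, an inbred laboratory strain, reared for 71 weeks at controlled temperature. The control group (3 libraries) ate normal chow, and the other group (3 libraries) ate chow with PB-MP, a polypropylene black microplastic. The diet was the difference between the groups that the labels give. The sources used here give no dose, and the labels do not say when the PB-MP diet began. Whether each library stands for its own animal is not stated, so the p-values describe the variation among these 6 libraries, part or all of which may be technical. The comparison of PB-MP with control asks whether a diet with this plastic alters gene expression in the liver.

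The ER folds the proteins that a hepatocyte secretes or places in its membranes, and the liver secretes most plasma proteins. When unfolded proteins build up there, the sensors ATF6, IRE1 (encoded by Ern1) and PERK (encoded by Eif2ak3) signal to the nucleus. ATF6 is cut to release a transcription factor, and IRE1 splices the mRNA of Xbp1 so that it encodes an active factor, and together these raise chaperones and the machinery of ER-associated degradation. PERK slows translation by phosphorylating the initiation factor eIF2-alpha, which favours translation of ATF4, a factor that raises genes of amino acid supply and, under lasting stress, pro-apoptotic genes such as Ddit3. The members were therefore described as 23 chaperone, folding and degradation genes driven largely by ATF6 and XBP1, 5 sensors and transcription factors, and 5 ATF4 targets. Read counts per gene add the spliced and unspliced forms of Xbp1 mRNA, and do not measure sensor cleavage, phosphorylation or protein.

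The DNA elements that these factors bind differ between the arms, and those found before the members' start sites are shown for that reason. RefSeq promoter windows (GRCm38.p6) were held for 29 of the 33 members, and the 250 bases before each start were searched on both strands. The ER stress response element, ERSE, the composite site of ATF6 with the CCAAT factor NF-Y, was searched as CCAAT and CCACG with any 9 bases between them. It was found for 9 of 20 ATF6 and XBP1 target genes with a window (45.0%), for 0 of 5 ATF4 targets and for 0 of 4 sensors and factors. Of all 27025 genes with a window, 35 held it (0.130%). The elements are written here in the orientation of the motif, with its fixed bases in capitals, and Hsp90b1 held a pair of them.
Hspa5: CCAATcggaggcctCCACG
Hsp90b1, first element: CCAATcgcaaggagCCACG
Hsp90b1, second element: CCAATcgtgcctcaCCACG
Calr: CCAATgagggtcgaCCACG
Canx: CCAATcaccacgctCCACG
Dnajc3: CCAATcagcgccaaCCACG
Pdia6: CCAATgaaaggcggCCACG
Creld2: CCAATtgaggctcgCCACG
Syvn1: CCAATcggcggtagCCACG
Derl3: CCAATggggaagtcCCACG

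The amino acid response element that ATF4 binds, searched as TGATGNAA, was found for 2 of 5 ATF4 targets, Asns and Chac1, and for 1 of 20 ATF6 and XBP1 targets, Herpud1. Of all genes with a window 3.91% held it. Herpud1 was also the member with the short form of the ER stress element, ERSE-II, searched as ATTGG and CCACG with any 1 base between them and found in 0.0370% of all genes. Its 250 bases before the start (GRCm38.p6, chr8:94386179-94386428, plus strand) are printed with both elements in capitals, the ATF4 element first and on the opposite strand, and the ER stress element nearer to the start.
Herpud1: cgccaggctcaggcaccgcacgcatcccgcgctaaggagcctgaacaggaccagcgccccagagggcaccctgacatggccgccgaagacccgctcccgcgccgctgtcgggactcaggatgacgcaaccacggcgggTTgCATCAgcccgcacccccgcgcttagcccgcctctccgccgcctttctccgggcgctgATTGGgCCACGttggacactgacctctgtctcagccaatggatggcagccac
The XBP1 element TGACGTGG was found in no member window, against 0.603% of all genes. The motifs share letters: ATTGG is CCAAT read on the other strand, and TGACGTGG ends in CCACG read on the other strand. A match is a string of letters and was not tested as a binding site, and no match says only that these letters are not in this window.

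Library totals ran from 68357478 to 112566641 reads, and the limit that a count of 0 allows, 3 reads, came to 0.0285 to 0.0495 CPM (read counts relative to library size, after scaling by the trimmed mean of M-values, TMM), for counting error only. Control replicate 2 correlated with PB-MP replicate 2 at 0.959 over all genes, above its 0.946 and 0.953 with the other controls, and PB-MP replicate 3 correlated with the other 5 libraries at 0.931 to 0.949 (Pearson, log2 CPM across genes). Rows of the mitochondrial genome took between 14.9% and 16.4% of the control reads and between 9.24% and 11.3% of the PB-MP reads. TMM factors, which enter every scaled value below, lay between 0.887 and 0.961 for control libraries and between 1.04 and 1.12 for PB-MP libraries.

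All 33 members passed the filter on low counts, and 30 of them had a mean of at least 1 CPM. Levels between genes are compared here per length, as CPM per kb of annotated exon. P4hb, the beta subunit of prolyl 4-hydroxylase and a protein disulfide isomerase, was the most abundant at 380.4 in control and 312 in PB-MP. Calr, a lectin chaperone that binds calcium, followed at 142 and 104, Hsp90b1, the ER form of HSP90, at 94.8 and 101, and Hspa5, the HSP70-type chaperone BiP, at 86.5 and 74.7. The order of Hsp90b1 and Hspa5 did not differ beyond the spread of their libraries. The sensors were far less abundant, with Atf6 at 5.41 and 5.64, Ern1 at 4.01 and 4.68 and Eif2ak3 at 1.61 and 1.36 per kb, while Atf4 reached 29.8 and 37.8. The lowest were Derl3 (0.442 and 0.368), Asns (0.426 and 0.248) and Ddit3 (0.138 and 0.326). Most members were steady across libraries: the highest library was under 2-fold above the lowest for 23 of 33, with a median of 1.62-fold. The other 10 included all 5 ATF4 targets.

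**Figure D1:**
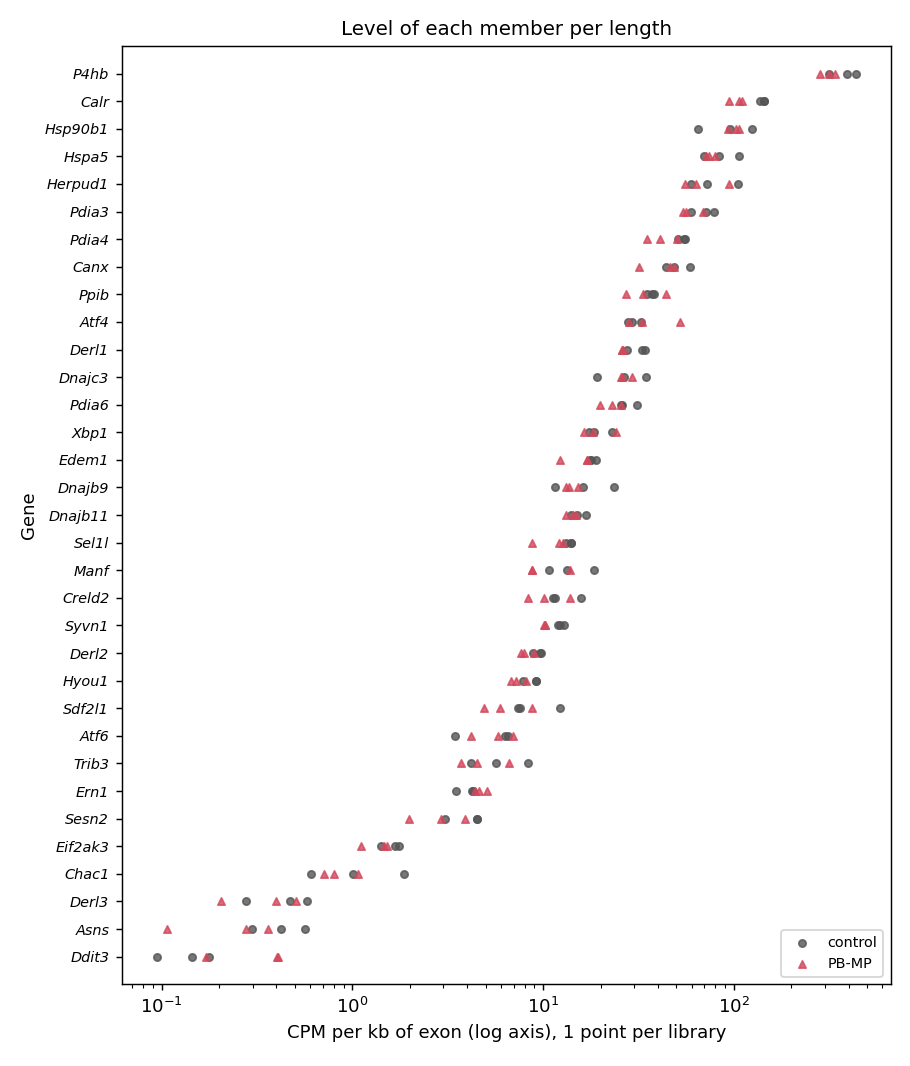
Level of each of the 33 members in CPM per kb of exon on a log axis, with 1 point per library, grey circles for control and red triangles for PB-MP. Genes are ordered by level, from Ddit3 at the bottom to P4hb at the top, and the libraries of the diets lie over each other for most genes.

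No member differed between the diets past the threshold. Of 33 members, 0 passed at an adjusted p below 0.05 in edgeR (quasi-likelihood test, Benjamini-Hochberg adjustment over 17871 genes), and 0.00% of all genes did. At an unadjusted p below 0.05 there were 2 members, Calr and Ddit3, or 6.06%, against 12.1% of all genes. DESeq2 called 0 members at an adjusted p below 0.05, against 2.44% of the genes it gave an adjusted p. With limma-voom 0 members were called, and 0 of all genes. The libraries of the diets did not overlap for 7 members (21.2%), against 19.8% of all genes, a share near that background. The smallest adjusted p of any member was 0.327 in edgeR, that of Calr.

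The 95% interval of the log2 fold change (PB-MP over control) lay within -1 to 1, that is within a 2-fold difference either way, for 25 of 33 members (75.8%) and for 45.7% of all genes. The 8 others were Sdf2l1, Manf, Derl3 and all 5 ATF4 targets, whose intervals reached past a 2-fold difference. The median width of the interval to each side was 0.44 for the 23 ATF6 and XBP1 targets, 0.49 for the sensors and factors and 1.02 for the ATF4 targets.

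Most estimates were below 0. Of 33 members, 27 had an estimate below 0, where 49.4% of all genes did, and the median of the members was -0.26 against 0.01 for all genes tested. Among the ATF6 and XBP1 targets 21 of 23 were below 0, the exceptions being Hsp90b1 and Dnajc3, and the median was -0.26. Among abundant genes as a whole more estimates were below 0 than above it. Of the 1085 genes tested with at least 100 CPM, 67.7% were below 0 at a median of -0.15, and of the 5596 with 10 to 100 CPM, 59.9% were below 0 at a median of -0.07. Of the 12 members with at least 100 CPM, 10 were below 0 at a median of -0.23, and of the 15 with 10 to 100 CPM, 12 were below 0 at a median of -0.26. No test was made of these counts, since the members were chosen with earlier results of these data known.

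**Figure D2:**
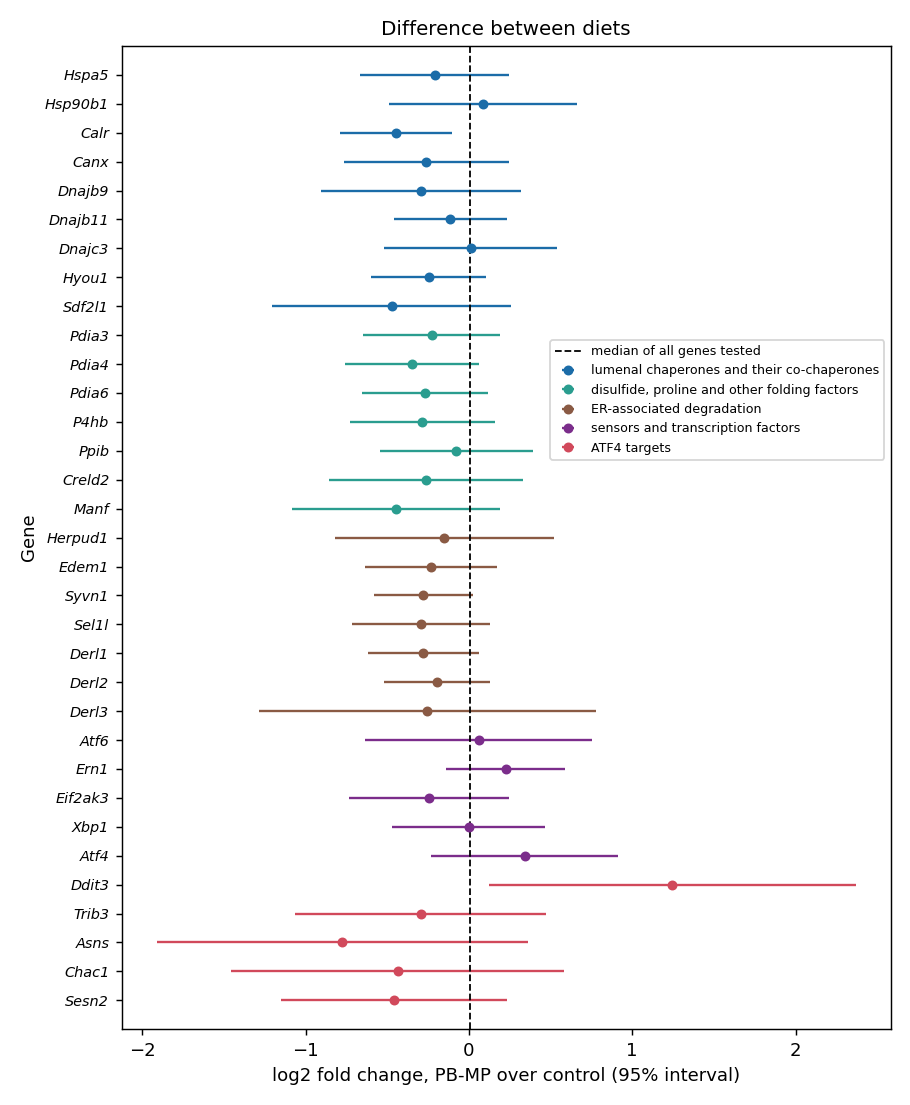
Log2 fold change of each member, PB-MP over control, with its 95% interval from edgeR, coloured by role, beside the median of all genes tested (dashed line). Calr lies below 0 and Ddit3 above 0 over the whole interval, before any adjustment for multiple tests, and the ATF4 targets have the widest intervals.

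The lumenal chaperones hold unfolded chains in solution until they fold. Calr was the member nearest to the threshold. It had 395, 415 and 413 CPM in control replicates 1, 2 and 3 and 319.6, 306 and 273 in PB-MP replicates 1, 2 and 3. Every control library was above every PB-MP library, and the controls varied little. The log2 fold change was -0.45 ± 0.15 (SE, n = 3 each, unadjusted p = 0.0183, edgeR adjusted p = 0.327). With 1 library left out in turn it ran from -0.49 to -0.38, with an unadjusted edgeR p of 0.0242 to 0.0638. With library size as the only scaling it was -0.22 and its unadjusted p in edgeR was above 0.05. Its partner Canx, the membrane-bound lectin chaperone that shares its sugar-tagged clients, had 207, 276 and 228 CPM in control and 217, 229 and 149 in PB-MP. The diets overlapped for Canx, with PB-MP replicate 3 the lowest library (-0.26 ± 0.22, edgeR adjusted p = 0.668).

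Hspa5, the chaperone that also holds the sensors inactive, had 294, 448 and 355 CPM in control and 312, 301 and 335 in PB-MP. The PB-MP values lay inside the control range, and the estimate was -0.21 ± 0.19 (edgeR adjusted p = 0.697). Hsp90b1 had 263, 499 and 384 CPM in control and 427, 377 and 412 in PB-MP. It too lay inside the control range, at 0.09 ± 0.24 (edgeR adjusted p = 0.916). Dnajb9, a J-domain partner of BiP and a sensitive target of spliced XBP1, had 29.6, 60.0 and 41.5 CPM in control and 34.7, 33.5 and 38.8 in PB-MP. Hyou1, a nucleotide exchange factor of BiP, had 66.2, 66.6 and 56.8 CPM in control and 51.8, 58.7 and 49.3 in PB-MP, and Sdf2l1, a component of a BiP complex, had 8.21, 13.7 and 8.34 against 5.45, 6.55 and 9.73. For these 3 co-factors the diets overlapped, and the estimates were -0.29 ± 0.26, -0.25 ± 0.15 and -0.47 ± 0.31 (edgeR adjusted p of 0.688, 0.545 and 0.578). The co-chaperones Dnajb11 and Dnajc3 were at -0.11 ± 0.15 and 0.01 ± 0.23.

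Control replicate 2 was the highest of the 6 libraries for all 9 chaperones and co-chaperones, and for 15 of the 33 members. It was the highest for 18.1% of all genes tested. The 18S ribosomal RNA row took 11.2% of its reads, 2.92% and 1.15% in control replicates 1 and 3, and 3.61%, 9.42% and 0.707% in PB-MP replicates 1, 2 and 3. The part of this difference in the chaperone values was not tested. Control replicate 1 was the lowest for 4 of the 9, Hspa5, Hsp90b1, Dnajb9 and Dnajc3, so the controls spanned both ends. Without control replicate 2 the median of the 9 was -0.06, against -0.25 with all libraries. The SD of Hspa5 was 77.8 CPM among controls and 17.4 among PB-MP libraries.

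**Figure D3:**
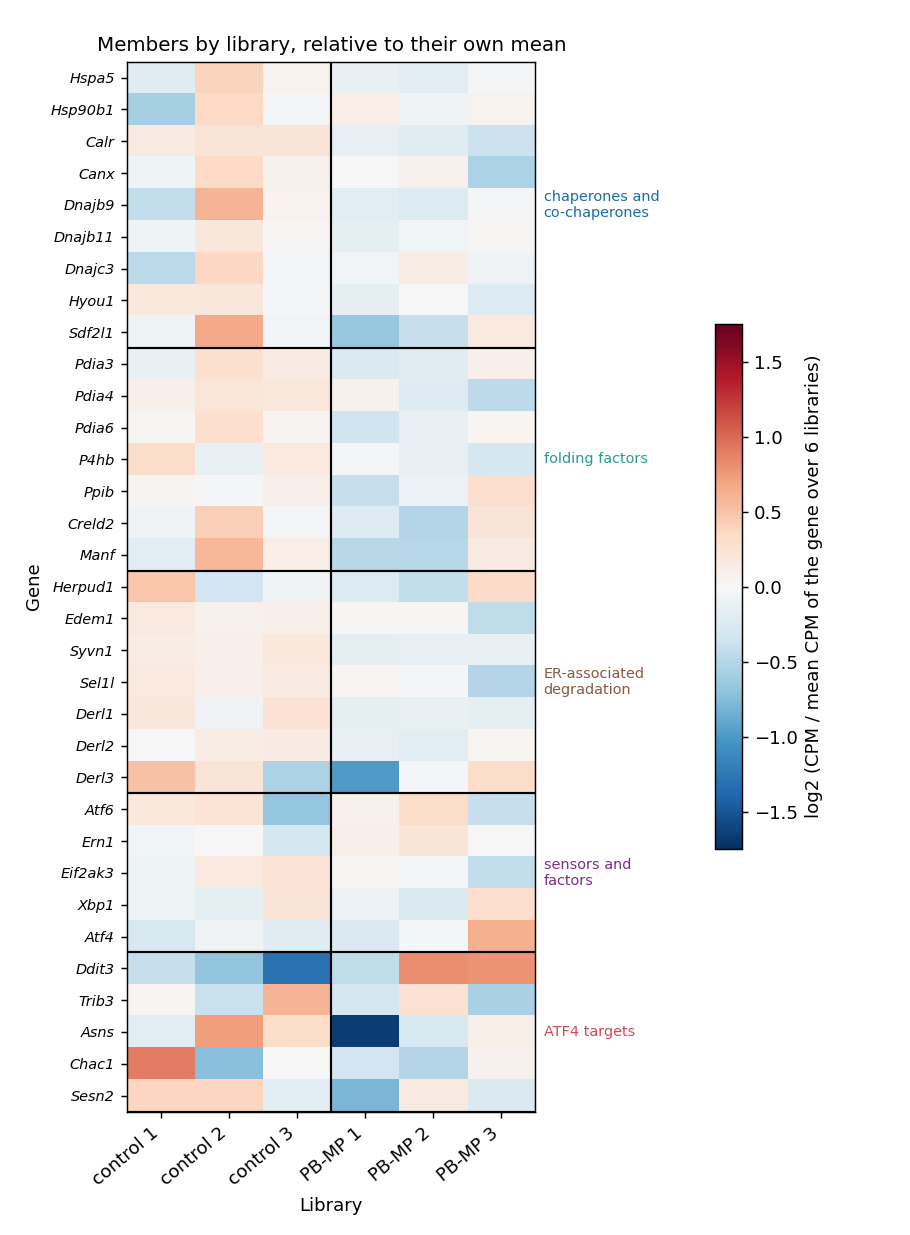
Each member's CPM in each library as log2 of the ratio to its own mean over the 6 libraries (red above, blue below), grouped by role, with the diets divided by the vertical line. The column of control replicate 2 is red for all 9 chaperones and co-chaperones, and the row of Ddit3 is red in PB-MP replicates 2 and 3.

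Disulfide isomerases pair the cysteines of new chains, and the other folding factors of this group turn proline bonds or act under stress. P4hb had 1243, 904 and 1118 CPM in control and 966, 901 and 810.3 in PB-MP. PB-MP replicate 3 was the lowest, but control replicate 2 lay among the PB-MP libraries (-0.29 ± 0.19, edgeR adjusted p = 0.580). Pdia4, another disulfide isomerase, had 122, 133 and 131 CPM in control and 121, 97.9 and 83.6 in PB-MP. The diets did not overlap, though control replicate 1 and PB-MP replicate 1 differed by less than 1 CPM (-0.35 ± 0.17, edgeR adjusted p = 0.468). Ppib, the ER cyclophilin, had 122, 116 and 126 CPM in control and 89.7, 111 and 145 in PB-MP, so that PB-MP replicates held both the lowest and the highest value (-0.08 ± 0.20). Pdia3, Pdia6, Creld2 and Manf had overlapping diets and estimates of -0.23, -0.27, -0.26 and -0.45. All 7 estimates of this group were below 0, with a median of -0.27.

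ER-associated degradation draws misfolded proteins back to the cytosol for the proteasome. Its 7 members also had estimates below 0, between -0.29 and -0.15. For 4 of them the diets did not overlap, with every control library above every PB-MP library: Edem1, Syvn1, Sel1l and Derl1. Among all genes 8.49% were apart in that direction. Syvn1, the ubiquitin ligase HRD1 of this pathway, had 59.9, 58.0 and 62.2 CPM in control and 49.0, 49.5 and 49.9 in PB-MP. The libraries of each diet were close together, and the log2 fold change was -0.28 ± 0.13 (edgeR adjusted p = 0.440). Sel1l, the adaptor of that ligase, had 119.7, 113.4 and 119 CPM in control and 109, 104 and 74.7 in PB-MP (-0.29 ± 0.18, edgeR adjusted p = 0.551). PB-MP replicate 3 was well below the rest for Sel1l, as it was for Edem1, a lectin that hands over glycoproteins (79.4 CPM, against 109 to 122 in the other libraries). Derl1, a channel component, had 85.9 to 87.3 CPM in PB-MP and 91.5 to 114 in control (-0.28 ± 0.14, edgeR adjusted p = 0.479).

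Herpud1, which stabilises the ligase complex and answers to both ATF6 and ATF4, varied more between libraries than Syvn1 or Derl1. It had 246, 139 and 169 CPM in control and 148, 129.8 and 221 in PB-MP. The diets overlapped across a nearly common range (-0.15 ± 0.28, edgeR adjusted p = 0.866). Derl3, a Derlin of professional secretory cells, stood near the lower end of detection with 1.15, 0.941 and 0.552 CPM in control and 0.406, 0.792 and 1.01 in PB-MP, from 32 to 98 reads a library (-0.26 ± 0.44). Derl2 was at -0.19 ± 0.14.

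The sensors and transcription factors had a median of 0.06. Atf6 had 58.0, 60.1 and 31.8 CPM in control and 53.7, 64.0 and 38.5 in PB-MP. In both diets replicate 3 was the low library, and the estimate was 0.06 ± 0.30 (edgeR adjusted p = 0.953). Ern1 had 34.4, 35.2 and 28.6 CPM in control and 37.7, 41.3 and 35.8 in PB-MP. It was the 1 member whose PB-MP libraries all lay above the controls, by a narrow gap, where 11.4% of all genes were apart that way (0.22 ± 0.16, edgeR adjusted p = 0.599). Eif2ak3 had 8.51, 10.1 and 10.6 CPM in control and 9.15, 8.87 and 6.65 in PB-MP (-0.24 ± 0.21). Xbp1 had 60.4, 56.6 and 74.4 CPM in control and 59.3, 53.4 and 78.5 in PB-MP. The means of Xbp1 were equal to 3 digits, 63.8 CPM in each diet, and the 95% interval ran from -0.47 to 0.47. Atf4 had 65.9, 76.6 and 68.7 CPM in control and 66.8, 77.7 and 123 in PB-MP. PB-MP replicate 3 stood above the rest, the other 5 libraries lying between 65.9 and 77.7 (0.34 ± 0.24, edgeR adjusted p = 0.609).

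The ATF4 targets had estimates on both sides of 0, and none passed the threshold. Ddit3, which encodes the pro-apoptotic factor CHOP, had 0.302, 0.248 and 0.162 CPM in control and 0.292, 0.697 and 0.687 in PB-MP, from 15 to 67 reads a library. PB-MP replicates 2 and 3 were above every control, while PB-MP replicate 1 lay within the control range. The log2 fold change was 1.25 ± 0.48 (95% interval 0.12 to 2.37, unadjusted p = 0.0342, edgeR adjusted p = 0.375). With 1 library left out in turn it ran from 1.02 to 1.55, with an unadjusted edgeR p of 0.0120 to 0.109. The annotation places 68 of its exon bases opposite an exon of Mars and 13 opposite one of Gm4189, and 11 of the 33 members overlap another annotated gene. No source used here gives the strand setting of the counting, so reads of such overlaps cannot be assigned.

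The other 4 targets had estimates below 0. Asns, the asparagine synthetase, had 0.810, 1.53 and 1.15 CPM in control and 0.292, 0.756 and 0.985 in PB-MP, PB-MP replicate 1 being the lowest by far with 23 reads (-0.77 ± 0.48, edgeR adjusted p = 0.558). Trib3, a pseudokinase that restrains ATF4 and AKT, had 11.99, 8.91 and 17.7 CPM in control and 9.56, 14.1 and 7.90 in PB-MP (-0.29 ± 0.33). Chac1, which degrades glutathione, had 3.06, 0.990 and 1.65 CPM in control and 1.31, 1.16 and 1.74 in PB-MP, control replicate 1 standing above the rest (-0.44 ± 0.43). Sesn2, a sestrin that inhibits mTORC1, had 15.6, 15.6 and 10.6 CPM in control and 6.91, 13.5 and 10.1 in PB-MP (-0.46 ± 0.29). In each of these 4 genes the diets overlapped. Atf4 was highest in PB-MP replicate 3. In that library Ddit3 was above every control, Trib3 was at its lowest, Asns and Chac1 lay inside the control range and Sesn2 lay below it. Some further ATF4 targets were singled out after their values were seen. Fgf21, a liver hormone, had 7.43 CPM there against 1.18 to 3.40 in the other libraries. Atf5, a related transcription factor, had 602 against 373 to 565. Others were at their lowest there, among them Eprs at 56.0 CPM and Iars at 19.1. Of the 33 further targets tested, 23 had estimates below 0 and 10 above.

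**Figure D4:**
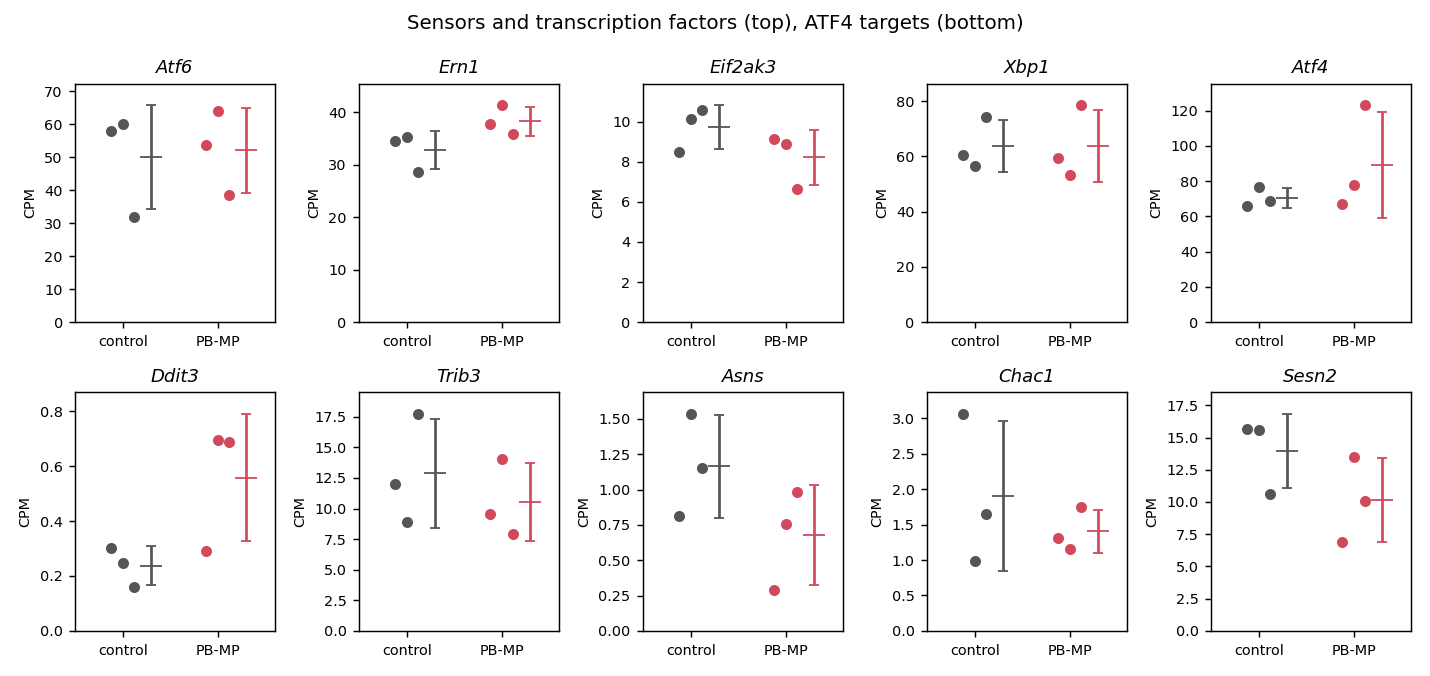
CPM of the 5 sensors and transcription factors (top) and the 5 ATF4 targets (bottom), 1 point per library with replicates 1 to 3 from left to right, and the mean ± SD of each diet beside them. Atf4 stands at 123 CPM in PB-MP replicate 3, and Ddit3 is above the controls in PB-MP replicates 2 and 3 but not in replicate 1.

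Genes around this response were read from 6 further lists, 161 genes in the table and 157 tested. In edgeR 0 passed at an adjusted p below 0.05, and at an unadjusted p below 0.05 there were 1 higher and 18 lower, against 7.35% and 4.74% of all genes. DESeq2 called 0 of them. Estimates were below 0 for 123 of the 157, with a median of -0.17. The genes of translocation and N-glycosylation, which feed and tag new chains, had the lowest median, -0.28 over 25 genes, 22 of them below 0 (49.4% of all genes), and 10 were apart with controls above PB-MP (8.49% of all genes). Sec61a1, the pore of the translocon, had 111, 96.9 and 109.6 CPM in control and 73.8, 77.8 and 61.0 in PB-MP (-0.58 ± 0.16, edgeR adjusted p = 0.254). Tram1, which assists the translocon, was at -0.49 ± 0.13 and Ssr1, of the translocon-associated protein complex, at -0.48 ± 0.14. The libraries of the diets did not overlap for any of these 3 genes.

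The remaining lists had medians nearer to 0. Other ER folding enzymes had a median of -0.15 over 26 genes, with the isomerase Txndc5 at -0.44 ± 0.14, the oxidase Ero1b at -0.45 ± 0.18 and the proline isomerase Fkbp14 on the other side at 0.65 ± 0.26. Other degradation genes had a median of -0.16 over 22, with Edem2, Rnf5 and Man1b1 at -0.35, -0.35 and -0.58. ER to Golgi transport genes had -0.16 over 27, with Sec23b, Tmed9 and Kdelr2, a receptor that returns chaperones to the ER, at -0.66, -0.46 and -0.33. Other sensors and regulators had -0.09 over 24, with Eif2ak1, Traf2 and Tmbim6 at -0.40, -0.29 and -0.53. Other ATF4 targets had -0.14 over 33, with Atf5 at 0.40 ± 0.18, Cebpb at -0.75 ± 0.32 and Slc7a5 at -0.61 ± 0.23.

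Members with and without the ER stress element are set side by side here. The 9 members that held it had a median log2 fold change of -0.26, 7 of them below 0, and the 20 with a window and without it had -0.24, 17 below 0. These sets differ in role. All 9 with the element were ATF6 and XBP1 targets, while the 20 without it also included 5 ATF4 targets and 4 sensors and factors. The 11 other genes tested that held the element had a median of 0.21, 4 of them below 0. That median was the value of Xlr3a (0.21 ± 0.62), and the 11 also included Xlr3b (0.33 ± 0.52) and Xlr3c (0.38 ± 0.68), all with wide errors. Xlr3b and Xlr3c had means below 1 CPM in both diets, and all genes tested below 1 CPM had a median of 0.20. The 4 below 0 were Adcy3 (-0.47 ± 0.33), Ero1b (-0.45 ± 0.18), Alg12 (-0.11 ± 0.22) and Acacb (-0.10 ± 0.53). The highest estimate was that of Pan2 (0.85 ± 0.30). These counts are a description chosen after the data were seen, with no test of the difference.

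How far the estimates lay from 0 depended on the scaling of the libraries. As a share of unscaled reads the members took between 0.397% and 0.405% of each control library and between 0.390% and 0.427% of each PB-MP library, which overlap. As TMM-scaled CPM they summed to between 4219 and 4474 with the control diet and between 3739 and 3820 with PB-MP, which do not, with P4hb giving 24.4% of the sum. With library size as the only scaling, 21 of 33 members were below 0 rather than 27, and their median was -0.03. The median of all genes was then 0.23, and 27 members lay below it, as 27 lay below the median of all genes with TMM. With the ribosomal RNA and mitochondrial rows left out, library size alone gave a median of -0.14 for the members and 0.12 for all genes. There 28 members lay below the median of all genes and 25 below 0. The sign of the estimate turned for 6 members with library size only. The members at an unadjusted edgeR p below 0.05 were then Ern1 (0.44), Atf4 (0.56) and Ddit3 (1.45), all higher in PB-MP, and no longer Calr.

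**Figure D5:**
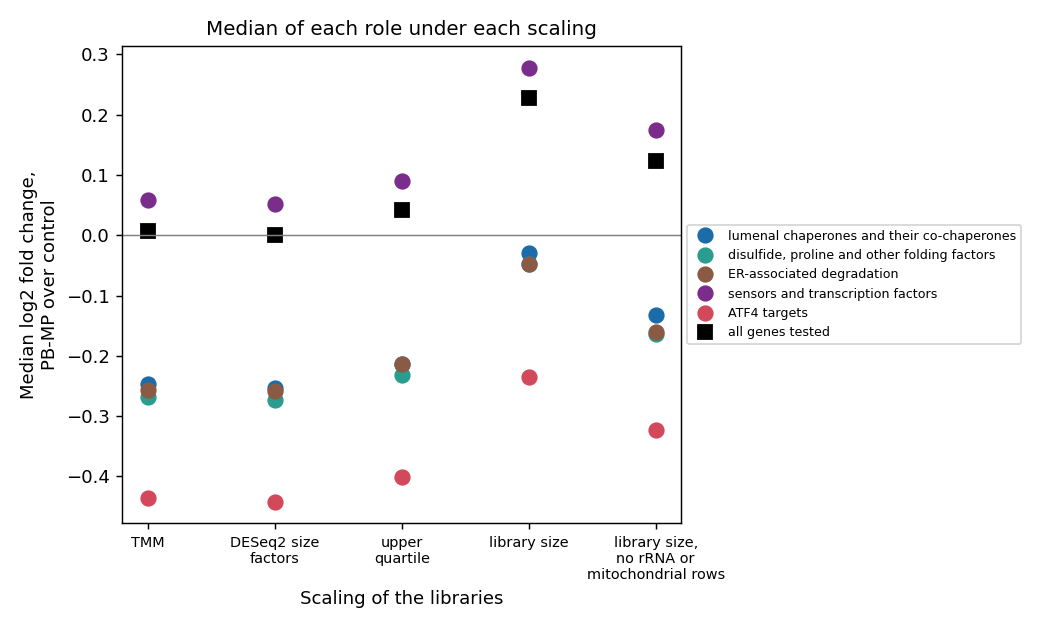
Median log2 fold change, PB-MP over control, of each role and of all genes tested under 5 scalings of the libraries. With library size alone all points lie higher, the median of all genes at 0.23. Under each of the 5 the sensors and factors lie above the median of all genes and the other 4 roles below it.

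Cell types other than hepatocytes carry these genes too, and plasma cells carry them at a high level. In bulk samples fewer cells of a type and less RNA per cell cannot be told apart. Of 10 plasma cell markers 0 were at 0 in every library, and their summed level was 250.3 to 402 CPM among controls and 216 to 275 among PB-MP libraries, of which Sdc1, which hepatocytes also express, gave 209 to 245 and 149 to 230. Jchain, the joining chain of secreted antibodies, had 28.0, 40.1 and 12.6 CPM in control and 6.87, 8.002 and 1.48 in PB-MP, and Mzb1, an ER chaperone of antibody-secreting cells, had 2.41, 3.55 and 0.590 against 0.380, 0.792 and 1.09. Control replicate 2, the highest library for the 9 chaperones, was also the highest for both. Of the 9 plasma cell markers tested 7 had estimates below 0 and 2 above. Prdm1 had 0.274, 0.215 and 0.209 CPM in control and 0.520, 0.544 and 0.421 in PB-MP, and Ighm was at 28.2 CPM in PB-MP replicate 1 and at 0.591 to 1.12 in the other libraries. Igkc ranged from 0.114 to 124.5 CPM among controls and from 19.1 to 60.4 among PB-MP libraries. Adipocyte markers, 8 in the list and 1 of them at 0 in every library, summed to 2545 to 3653 and 2028 to 3257 CPM, nearly all of it Car3, which hepatocytes also express. Of the 5 tested 3 were apart with controls above PB-MP, Cfd, Retn and Cidec, where 8.49% of all genes were apart that way. Car3 and Fabp4 had overlapping diets, and Fabp4 was the 1 with an estimate above 0 (0.26 ± 0.32). Cfd had 8.71, 2.19 and 11.98 CPM in control and 0.723, 0.615 and 1.303 in PB-MP. Retn was near the lower end of detection, with 11 to 35 reads in control libraries and 0 to 4 in PB-MP libraries. The defining adipocyte marker Adipoq was at 0 to 0.0923 CPM. Stellate cell and fibroblast markers summed to 306 to 311 and 171 to 295 CPM over 9 genes, with Dcn at 176 to 202 and 104 to 187. Of these 9 genes 8 had estimates below 0. Lrat was the 1 above 0 (0.32 ± 0.39), with overlapping diets. Kupffer cell and macrophage markers summed to 140.3 to 187 and 175 to 372 CPM over 10 genes. The sums of 9 neutrophil markers were 1.33 to 1.85 and 3.18 to 5.65, and of 9 B and T cell markers 9.94 to 20.0 and 7.64 to 11.04. Of 14 pancreatic acinar markers 8 were at 0 in every library, Prss2 and Try4 among them. The hepatocyte marker Alb lay between 47165 and 56244 CPM among controls and between 49897 and 54433 among PB-MP libraries. The part of these cell types in the members' values was not tested.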

How the data were processed

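Poly(A)-selected liver RNA was sequenced from 3 control and 3 PB-MP samples, with a directional library kit per the labels' protocols. The values the authors deposited are whole-number read counts by gene symbol, not normalized. The submitters' processing notes name bcl2fastq and GRCm39, without roles. No aligner, counting program, annotation or strand setting is given in the sources used here. Of 56674 rows, 939 shared a name with another (0.0308% of reads), and the row with most reads kept it.

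Genes were kept by filterByExpr of edgeR (minimum count 10, minimum total count 15), which left 17871. After TMM scaling, genes were tested in edgeR 4.0.16 (R 4.3.3) by its quasi-likelihood F test, diet being the 1 term, with Benjamini-Hochberg adjustment over all genes. An SE is the fold change divided by the square root of F. DESeq2 1.42.0 and limma 3.58.1 served as alternatives, beside other scalings, filters, a replicate block and left-out libraries. The test was tested on simulated data with known changes. No libraries agreed within sampling noise.

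The members, the lists and the joint omission of control replicate 2 and PB-MP replicate 3 were chosen with earlier results of these data known. Each member with an unadjusted p below 0.05 and 23 anchors are given in every library, plus from each further list the 3 genes with the lowest p whose mean reached 1 CPM. Members outside this rule are named for non-overlap or to complete a role. Exon lengths are the union of exons in GENCODE M21 (GRCm38), a build other than GRCm39, used for lengths and overlaps only. Promoter windows are RefSeq's on GRCm38.p6.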

Additional observations from a re-analysis of the deposited data

How the results depend on the processing

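Every alternative kept 0 members called, and 0 genes were called in the 6 lists of other pathway genes. The smallest adjusted p of a member was 0.131, for Calr with library quality weights in limma-voom. Over all genes DESeq2 called 512, and edgeR called 2 with control replicate 2 and PB-MP replicate 3 both left out, and 0 to 1 with 1 library left out. The number of members at an unadjusted p below 0.05, 2 with all libraries, was 3 with library size only (Ern1, Atf4 and Ddit3, all higher, without Calr), 1 with the stricter filter of 1 CPM in 3 libraries, 1 with limma-voom, 5 with quality weights, 0 with the replicate block, 1 with library size and no ribosomal or mitochondrial rows (chosen after seeing the data), 6 without both of those libraries (23.8% of all genes) and 0 to 3 with 1 library left out, 0 being without control replicate 3. At an unadjusted edgeR p below 0.05, 12.1% of all genes passed in the main fit and 15.8% with library size only. In these fits the counts of members alone therefore do not set them apart from other genes. Where no share of all genes is given beside a count, the count is not read as a result about the members. The stricter filter left out Ddit3 and Derl3. Same-numbered control and PB-MP libraries deviated from their group means with correlations of -0.087, 0.094 and 0.082. With 3 libraries a group, these values cannot decide whether the numbers pair samples. The labels name no pairing, so the replicate block describes a number only.

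Members with non-overlapping diets, 7 in all, numbered 4 with library size only, 3 with that and no ribosomal or mitochondrial rows, 8 to 17 with 1 library left out (17 without control replicate 1, 15 without PB-MP replicate 3) and 19 without control replicate 2 and without PB-MP replicate 3 (59.3% of all genes). Of all genes, 19.8% were apart in the main fit and 23.9% with library size only. The count without ribosomal and mitochondrial rows has no such share beside it and is not read as a result about the members. Fewer libraries in a group make non-overlap more frequent for any gene, so the counts with libraries left out cannot be set against the 7. With library size only, medians were -0.034 for all members, -0.029 for chaperones, -0.048 for folding factors, -0.048 for degradation and 0.28 for sensors and factors. With ribosomal and mitochondrial rows also left out they were -0.14 for all members and 0.17 for sensors and factors, whose median ran from 0.035 to 0.18 with 1 library left out. The estimates of single members moved by less than 1 SD between replicates in 602 cases and by more in 23, most of them with library size only. The counts of the ATF4 targets limit their precision, Ddit3 and Asns holding 15 to 121 reads a library.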
